A study of Danio rerio with 6 samples.

Results

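Keratin, claudin and epidermal genes were described in iridophores, the reflective pigment cells of fish, sorted from zebrafish (Danio rerio) larvae. The members were chosen by the spelling of their symbols: every row of the count table that starts with krt, cyt1, cldn, epcam, icn, anxa1, agr1, agr2, tp63, ppl, evpl, dsp, dsc, pkp1, pkp2, pkp3, jup or lye, together with cdh1. The spelling caught 71 of 11016 rows, and 12 of those 71 share letters with the group but not its biology (for example krtcap2, dscr3, dscama and anxa13). The remaining 59 rows are 17 keratins, 22 claudins, 10 genes of junction plaques and the cell envelope, 3 annexin A1 genes and 7 others. The genes epcam, jupa and jupb were not analysed here.

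The iridophore samples were cells positive for mCherry, sorted from 5-day-old WT larvae that carried the transgene Tg(pnp4a:PALM-mCherry), in which the promoter of the purine enzyme gene pnp4a drives a membrane-bound red protein. The other samples were a general cell population (the control), sorted from dissociated larvae of the same genotype label and age. Each group had 3 biological replicates of about 20000 cells, collected from whole larvae into lysis buffer. The labels do not say whether the control sort left out mCherry-positive cells, nor whether a replicate number marks the same larvae in both groups. The control was drawn from whole dissociated larvae, and in these bulk samples fewer cells of a type and less RNA per cell cannot be told apart.

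Zebrafish larval skin has a superficial layer, the periderm, over a basal layer that rests on the basement membrane. Keratins form the intermediate filaments of these cells, and desmosomes tie the filaments of neighbouring cells together through plakins, plakophilins and desmosomal cadherins. Claudins are the membrane proteins of tight junctions, and different epithelia use different sets of them. The transcription factor p63 (tp63) marks basal keratinocytes, and the type I keratin krtt1c19e is a standard basal marker, whereas cyt1, cyt1l, krt4, krt5 and cldne are markers of the superficial layer.

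Libraries held 616439 to 1686552 counts in iridophores and 1612637 to 3282480 in the control, so a count of 3 stood for a level of 1.69 to 5.50 CPM in iridophore libraries and of 0.897 to 1.79 CPM in control libraries. CPM is the count scaled to the library size after TMM normalisation, and it was not divided by gene length, since the assay counts 3' ends. Of 10 listed iridophore marker genes 7 had rows, and all 7 were tested and higher. Their summed level was 2610.4 to 5151 CPM in iridophores, against 23.6 to 71.3 CPM in control libraries. This is no independent check of the label, since the list was written with earlier results known. It includes pnp4a, whose promoter drove the mCherry of the sort and which had a mean of 2406 CPM in iridophores, of a mean sum of 4096 CPM. The gene alx4a, with 0 counts in the control, passed the filter only through iridophores. So did fhl2b, sox10 and tfec, with at most 6 counts in any control library. The gene gpnmb, with 4, 12 and 28 counts in the control, also needed iridophore libraries to pass. For these genes the filter favoured a call of higher. Iridophore replicate 1 had the lowest of the iridophore sums. Replicate 1 of both groups has a library name with a different ending from replicates 2 and 3, and it lies apart from them for many of the genes described here.

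Of the 71 rows, 51 passed the filter on low counts and were tested. An edgeR quasi-likelihood adjusted p under 0.05, taken over all 6849 tested genes, called 10 of them higher and 18 lower in iridophores. The higher rows cldn19, anxa1c, krtcap2 and anxa13l passed the filter only through iridophores. The lower rows cldn10b, dsc2l, pkp2 and pkp3b passed it only through the control. For such rows the filter favoured the direction of the call. The background was 22.1% of all genes called higher and 17.8% called lower. The groups did not overlap for 9 rows higher and 22 rows lower, beside 27.0% and 24.9% of all genes. The median log2 change was -0.45 over the 51 rows and 0.01 over all tested genes. Genes with many counts were called lower more often: among rows of at least 100 CPM in the control, 10 of 26 members (38.5%) were lower, a share near the 36.1% found over all 976 genes of that level, and 3 were higher beside 11.9%. All members together took 1.51%, 1.16% and 1.39% of the counts in replicates 1, 2 and 3 of the iridophores, against 1.92%, 1.96% and 1.88% in those of the control.

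**Figure D1:**
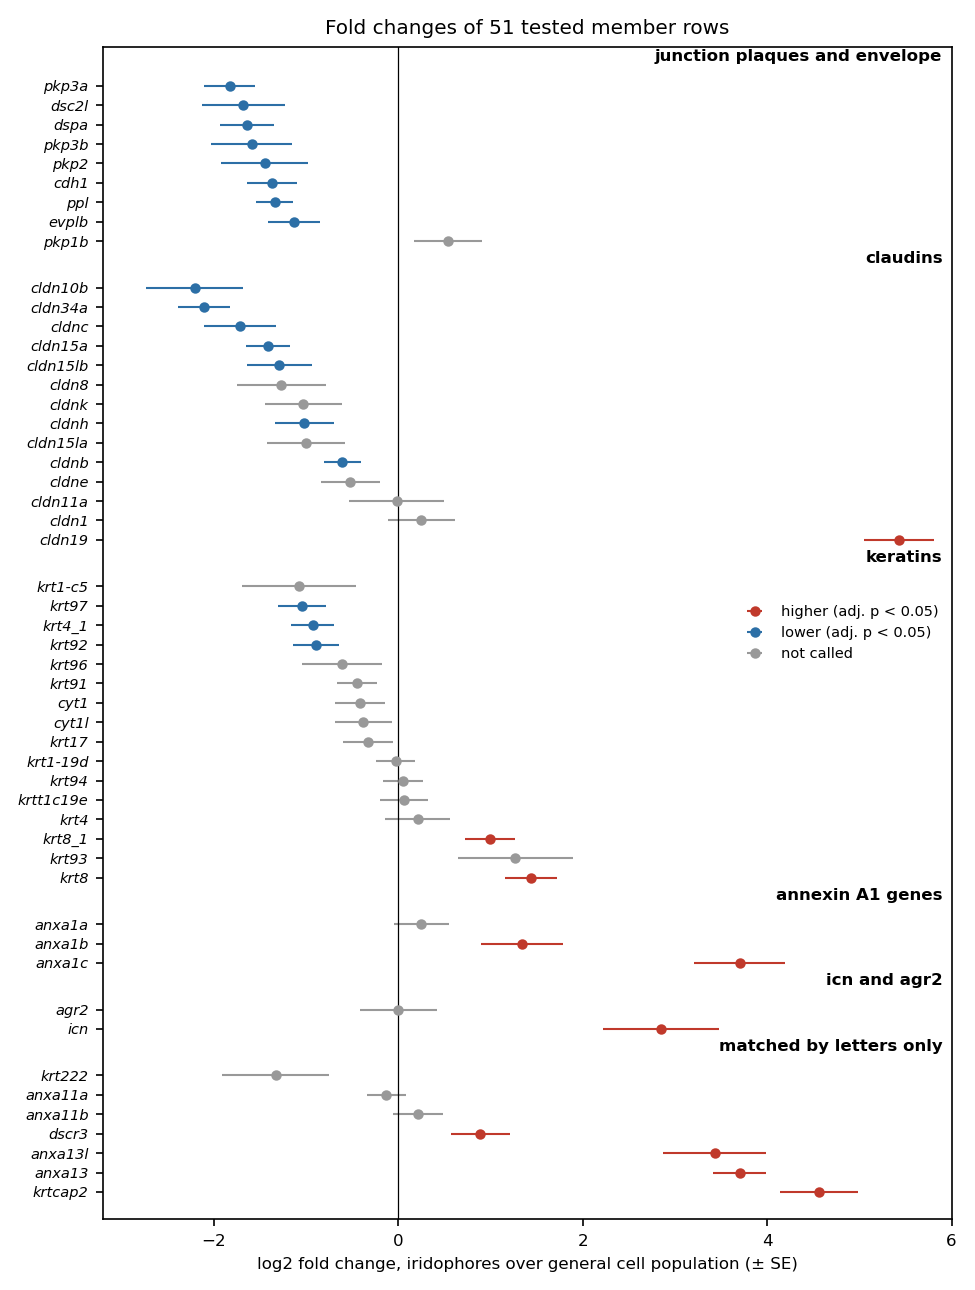
Log2 change (x axis, iridophores over general cell population, bars are SE) of the 51 tested rows, grouped by kind and coloured by the edgeR call. Of 9 plaque and envelope rows 8 lie at -1.13 or below, keratins spread from -1.08 to 1.44, and cldn19 stands alone among the claudins at 5.43.

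Keratins split into rows that were lower, rows whose groups overlapped and rows that were higher. Of 16 tested keratin rows 3 were lower, 2 were higher and 11 were not called, beside 17.8% of all genes lower and 22.1% higher. The share of lower keratin rows was near that of all genes. All 3 lower rows had at least 100 CPM in the control, a level at which a larger share of all genes, 36.1%, was lower. The 3 lower rows, krt97, krt92 and krt4_1, took more counts in the control than any other member. The type I keratin krt92 had 2781, 1674 and 1376 CPM in iridophore replicates 1, 2 and 3, against 3966, 3423 and 3390.4 CPM in control replicates 1, 2 and 3. Every iridophore library lay below every control library, and the log2 change was -0.89 (SE 0.25, edgeR adjusted p 0.0195). This call was lost without iridophore replicate 2 (log2 change -0.80, edgeR adjusted p 0.0818).

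For krt97 the levels were 2341, 1159 and 1456 CPM in iridophores, against 3976, 3234 and 3077 CPM in control libraries, and the log2 change was -1.05 (SE 0.26, edgeR adjusted p 0.00948). The row krt4_1 had 1138, 1166 and 1889 CPM in iridophores, against 2359, 2923 and 2704 CPM in control libraries. Its log2 change was -0.93 (SE 0.23, edgeR adjusted p 0.00965), and again no library of either group crossed into the range of the other. The suffix of krt4_1 marks a second row of the same symbol, and the row krt4 itself was low and flat, with 9.66 ± 2.92 CPM in iridophores, against 9.11 ± 0.905 CPM in control libraries (means ± SD of 3 libraries). How reads were shared between these rows is uncertain.

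The superficial keratins cyt1 and cyt1l did not pass the test over all 6 libraries. For the superficial keratin cyt1 the levels were 583, 987 and 859.9 CPM in iridophores, against 724, 1229 and 1304 CPM in control libraries. The groups overlapped through replicate 1, which was the lowest library of each, and the log2 change was -0.42 (SE 0.27, edgeR adjusted p 0.247). Its relative cyt1l had 485, 772 and 709 CPM in iridophores, against 473, 1089.9 and 992 CPM in control libraries, with a log2 change of -0.38 (SE 0.31, edgeR adjusted p 0.367). In replicates 2 and 3 alone cyt1 passed the test at -0.48 (edgeR adjusted p 0.0364) and cyt1l at -0.52 (edgeR adjusted p 0.0254), and replicate 1, with 1 library per group, allows no test of its own. With the library-name ending as a term in a fit of all 6 libraries, cyt1 was called lower at -0.41 (edgeR adjusted p 0.0468), and cyt1l was not called at -0.32 (edgeR adjusted p 0.144). Without control replicate 1 alone, cyt1l was also called lower, at -0.71 (edgeR adjusted p 0.0485). With the replicate number as a term neither was called (edgeR adjusted p 0.0905 for cyt1 and 0.208 for cyt1l). DESeq2 did not call them either (adjusted p 0.304 and 0.419).

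The basal keratin krtt1c19e was the closest to equal among the layer markers. It had 482, 720.1 and 758 CPM in iridophores, against 442, 714 and 733 CPM in control libraries. The fitted log2 change was 0.06 (SE 0.26, edgeR adjusted p 0.882). Its sign flipped to -0.10 with upper-quartile scaling, which moved the median of all genes to -0.14. The levels of this keratinocyte transcript overlapped between the groups, although the mCherry sort was for another cell type.

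**Figure D2:**
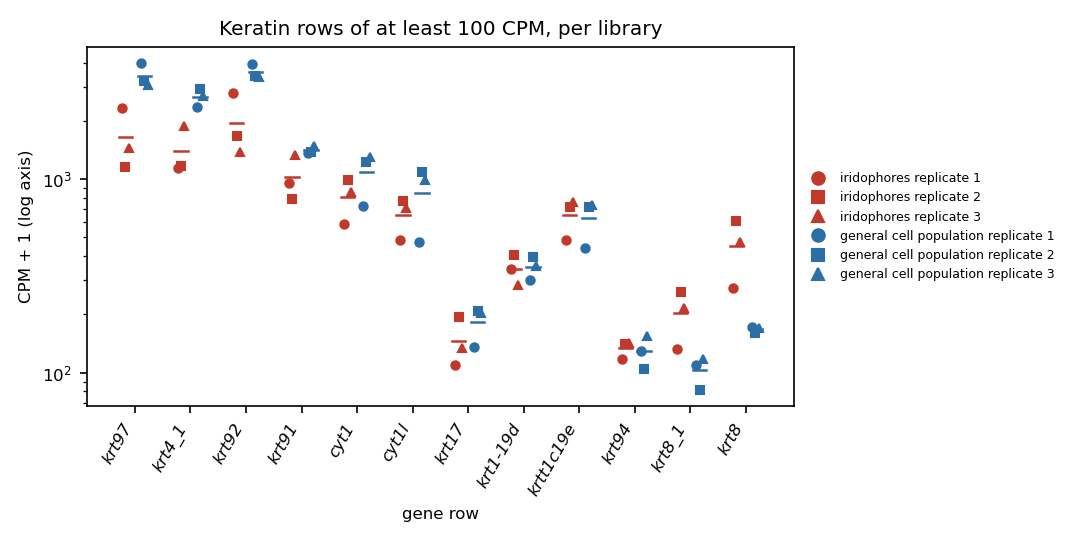
CPM + 1 per library (log y axis) of 12 keratin rows with a mean of at least 100 CPM in a group, with iridophores in red to the left of the general cell population in blue, symbols for replicates and bars for means. The groups separate for krt97, krt4_1, krt92 and krt91 (lower, krt91 without passing the test) and for krt8 and krt8_1 (higher), and overlap for cyt1, cyt1l, krt17, krt1-19d, krtt1c19e and krt94.

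Other keratins of the same neighbourhood behaved between these cases. A run of 7 keratin genes lie next to each other with no other protein-coding gene between them on the RefSeq assembly GRCz12tu, in the order krt1-19d, krtt1c19e (there named krt1-19e), krt92, cyt1l, cyt1, krt17 and krt91. Their log2 changes were -0.03, 0.06, -0.89, -0.38, -0.42, -0.33 and -0.45, and krt92 was the only one called. The row krt91 had 956, 789.8 and 1342 CPM in iridophores, against 1362, 1385 and 1487 CPM in control libraries. Its groups did not overlap, but the test did not pass (edgeR adjusted p 0.122), and it was called without iridophore replicate 3 (log2 change -0.73, edgeR adjusted p 0.0159).

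Relative to krtt1c19e in the same library, cyt1 stood at 1.21, 1.37 and 1.13 in iridophores and 1.64, 1.72 and 1.78 in the control, with no overlap. The ratio of krt17 to krtt1c19e was also lower without overlap, at 0.222 ± 0.0456 in iridophores and 0.290 ± 0.0142 in the control (means ± SD of 3 libraries). For each of these ratios the two-sided exact permutation p was 0.1, the smallest that 3 against 3 libraries allow, and 0.3 after Benjamini-Hochberg adjustment over the 6 ratios to krtt1c19e that were compared. The other ratios overlapped between the groups, with exact permutation p of 0.2 to 0.9. Since p cannot go below 0.1 here, no ratio to the basal keratin could pass a threshold of 0.05. The permutation test therefore cannot decide whether these ratios differ.

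Keratin 8, the type II keratin of simple epithelia, went the other way. The row krt8 had 273, 609.8 and 474 CPM in iridophores, against 170.5, 160.1 and 169 CPM in control libraries. All iridophore libraries lay above all control libraries, and the log2 change was 1.44 (SE 0.28, edgeR adjusted p 0.00263). The second row, krt8_1, had 202 ± 64.9 CPM in iridophores, against 102 ± 19.1 CPM in control libraries (means ± SD of 3 libraries), a log2 change of 0.99 (SE 0.27, edgeR adjusted p 0.0170). That second call was lost without control replicate 2, iridophore replicate 2 or iridophore replicate 3 (edgeR adjusted p 0.0599 to 0.106). The usual partner of keratin 8, keratin 18, was not analysed here.

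The genes krt94 and krt1-19d had log2 changes of 0.05 and -0.03 and were not called. The row krt93 had 22.0, 42.1 and 74.2 CPM in iridophores, against 25.4, 32.1 and 3.08 CPM in control libraries (log2 change 1.27, SE 0.62, edgeR adjusted p 0.133). The rows krt96 and krt1-c5, with mean levels of 5.66 and 5.51 CPM in iridophores, against 9.12 and 9.13 CPM in control libraries, were not called. In iridophores krt1-c5 had 12.8 CPM in replicate 1 and 1.45 CPM in replicate 2, and without iridophore replicate 1 it was called lower at -2.17 (edgeR adjusted p 0.0106).

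Over the layers as lists, 13 of 19 rows of the superficial list were tested. Of these, 3 were higher (icn, anxa1c and anxa1b), 4 were lower (krt4_1, krt92, ppl and evplb) and 6 were not called. The shares over all genes were 22.1% higher and 17.8% lower. In replicates 2 and 3 alone, 8 rows of the superficial list were called lower, with cyt1, cyt1l, cldne and krt1-c5 added, and 4 were called higher. Of all 7251 genes tested in that fit, 1468 were lower and 1703 higher. The summed superficial level overlapped between groups, at 9436, 6274 and 6140.1 CPM in iridophores, against 8583, 9644 and 9367 CPM in control libraries. Only krtt1c19e of the 4 rows of the basal list was tested. The defining factor tp63 was near the detection limit, with 2, 2 and 4 counts in iridophores and 4, 6 and 4 counts in the control, and its second row tp63_1 had 3, 2 and 11 counts in iridophores and 6, 9 and 3 counts in the control. The basal claudin cldni had 1, 3 and 20 counts in iridophores and 5, 11 and 11 counts in the control. Of the rows of the basal list, krtt1c19e was therefore the one that could be tested at this depth.

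The junction plaque and envelope genes were the most uniform members. Of 9 tested rows 8 were lower and 0 were higher, beside 17.8% and 22.1% of all genes, and their iridophore means kept 27.6% to 46.4% of the control level. The count of 0 higher also held at an unadjusted p under 0.05 (26.1% of all genes were higher by that rule), with DESeq2 and with limma-voom. Their summed level was 346, 196 and 282 CPM in iridophores, against 694, 701 and 676 CPM in control libraries. Without iridophore replicate 2, the library with the lowest sum, 5 rows were called lower and dsc2l, pkp2 and pkp3b were lost. The rows dsc2l, pkp2 and pkp3b had passed the filter only through the control, which favoured a call of lower.

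Desmoplakin, the plakin that anchors keratin filaments to the desmosome, fell: dspa had 56.8, 27.6 and 65.8 CPM in iridophores, against 175, 151 and 150.2 CPM in control libraries (log2 change -1.64, SE 0.29, edgeR adjusted p 0.00187). The plakophilin gene pkp3a had 20.2, 11.6 and 18.6 CPM in iridophores, against 50.8, 70.2 and 61.5 CPM in control libraries, and the log2 change was -1.83 (SE 0.28, edgeR adjusted p 0.000666). No iridophore library reached the control range for either gene.

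Periplakin (ppl), a plakin of the cell envelope, was the steadiest of them, with 47.6, 45.0 and 51.7 CPM in iridophores, against 118, 126 and 124 CPM in control libraries (log2 change -1.34, SE 0.20, edgeR adjusted p 0.000657). Its partner envoplakin (evplb) had 148, 74.0 and 78.7 CPM in iridophores, against 221, 218 and 209.7 CPM in control libraries, and the log2 change was -1.13 (SE 0.28, edgeR adjusted p 0.00915). E-cadherin (cdh1), the adherens junction cadherin of epithelia, had 40.3, 18.9 and 27.6 CPM in iridophores, against 77.8, 75.0 and 66.7 CPM in control libraries, and the log2 change was -1.37 (SE 0.27, edgeR adjusted p 0.00323).

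The 3 desmosome genes with few counts were also lower, each with calls that depend on single libraries. All 3 passed the filter only through the control. The desmocollin gene dsc2l had 4.72 ± 2.31 CPM in iridophores, against 14.5 ± 4.53 CPM in control libraries (log2 change -1.68, edgeR adjusted p 0.0148), and lost its call without iridophore replicate 2 or 3. The plakophilin gene pkp3b had a log2 change of -1.59 (edgeR adjusted p 0.0170) and lost its call without iridophore replicate 2 or control replicate 1. For pkp2 the log2 change was -1.45 (edgeR adjusted p 0.0319), or -2.41 without iridophore replicate 3, and the call was lost without control replicate 3, iridophore replicate 1 or iridophore replicate 2, and under limma-voom (adjusted p 0.0542).

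The exception was pkp1b, another plakophilin gene, which overlapped between the groups at 11.3 ± 2.91 CPM in iridophores, against 8.46 ± 2.48 CPM in control libraries (log2 change 0.54, SE 0.37, edgeR adjusted p 0.277). The second envoplakin gene evpla had at most 12 counts in any library and was not tested. The summed iridophore level was 39.8% of the control for plaque and envelope genes and 64.8% for keratins, and the difference between these shares was not tested.

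**Figure D3:**
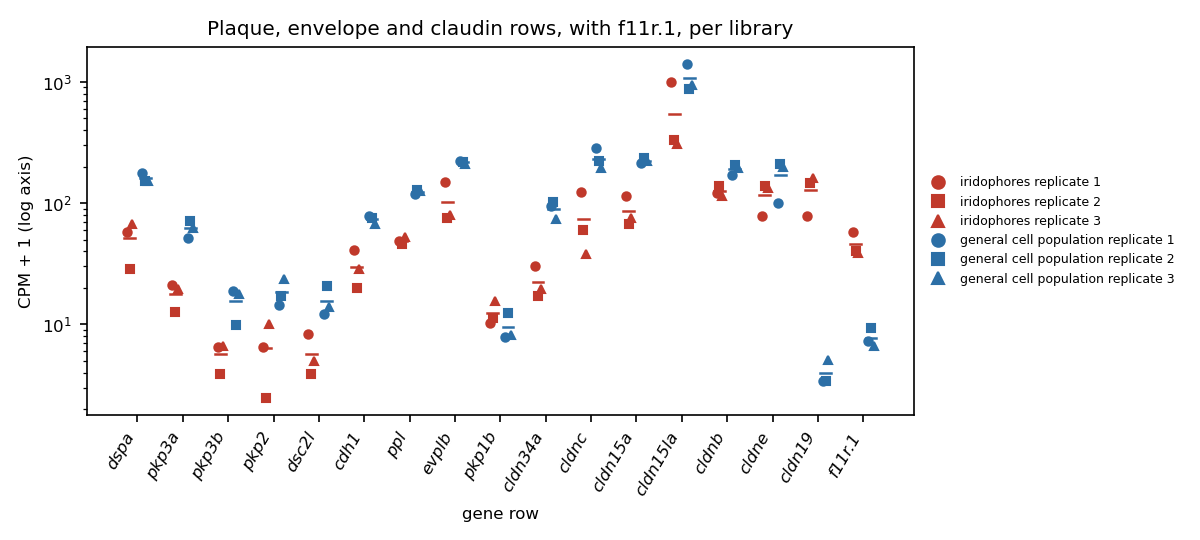
CPM + 1 per library (log y axis) of 16 plaque, envelope and claudin rows and of the junction adhesion gene f11r.1, with iridophores in red to the left of the general cell population in blue, symbols for replicates and bars for means. For dspa, pkp3a, pkp3b, pkp2, dsc2l, cdh1, ppl and evplb every iridophore point lies below every control point, while cldn19 and f11r.1 show the opposite order.

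Of 22 claudin rows 14 were tested, of which 7 were lower, 1 was higher and 6 were not called, beside 17.8% of all genes lower and 22.1% higher. Claudin 19, known in mammals from kidney tubules and the retinal pigment epithelium, had 76.9, 144 and 159 CPM in iridophores, against 2.39, 2.38 and 4.10 CPM in control libraries. Its lowest iridophore library was far above the highest control library, with a log2 change of 5.43 (SE 0.38, edgeR adjusted p 6.38e-06). With 8, 4 and 8 counts in the control, cldn19 passed the filter only through iridophores, which favoured a call of higher. Leaving out a library at a time gave 5.18 to 5.66, and replicates 2 and 3 alone gave 5.46.

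Among the lower claudins, cldn34a had 29.3, 16.0 and 18.6 CPM in iridophores, against 93.0, 101 and 72.8 CPM in control libraries (log2 change -2.11, SE 0.28, edgeR adjusted p 0.000297). For cldn10b, whose mammalian relative forms paracellular pores for cations, counts were 0, 4 and 10 in iridophores and 47, 39 and 52 in the control, a log2 change of -2.21 (SE 0.53, edgeR adjusted p 0.00850). The row cldn10b passed the filter only through the control. The groups did not overlap for either gene.

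The claudin 15 genes are known from the gut. The gene cldn15a had 114, 66.8 and 74.8 CPM in iridophores, against 214, 233 and 222 CPM in control libraries (log2 change -1.41, SE 0.24, edgeR adjusted p 0.00133). Its relative cldn15la, whose promoter is used to mark intestinal epithelium, had 993, 328 and 305 CPM in iridophores, against 1409.7, 869.7 and 942 CPM in control libraries. Iridophore replicate 1 reached into the control range, and the log2 change of -1.0 was not called (edgeR adjusted p 0.0867). Without that library it was -1.78 (edgeR adjusted p 0.000499), and in replicates 2 and 3 alone -1.54 (edgeR adjusted p 1.59e-05). It was also called with the library-name ending as a term, at -1.18 (edgeR adjusted p 0.000444), and under limma-voom, at -1.23 (adjusted p 0.0293). The row cldn15lb had a log2 change of -1.29 (edgeR adjusted p 0.0147), lost without iridophore replicate 2 or 3.

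Intestinal marker genes were compared in the same fit. Of 8 rows of 7 listed intestine genes, 7 were tested. Of these, 4 were lower (vil1, cdh17, chia.2 and apoa4b.1) and 0 higher, beside 17.8% and 22.1% of all genes. The 4 lower rows had over 100 CPM in the control, a level at which 36.1% of all genes were lower and 11.9% higher. The rows anpepb, chia.3 and fabp2_1 were not called, and fabp2_1 had a log2 change of 0.55 (edgeR adjusted p 0.373). The summed level of the 8 rows was 5778, 2907 and 2950.2 CPM in iridophores, against 12354, 11500.3 and 11430 CPM in control libraries. Iridophore replicate 1 again stood above the other iridophore libraries. No defining intestine marker was at 0 in any library. The brush border gene vil1 had 742, 247 and 289.6 CPM in iridophores, against 1819, 1515 and 1608 CPM in control libraries, and the log2 change was -1.96 (SE 0.37, edgeR adjusted p 0.00257), or -2.63 without iridophore replicate 1. The part of gut cells in the claudin values was not tested.

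The adjacent claudin genes cldnh, cldnc and cldnb, which RefSeq lists next to each other (cldnh as cldn3c and cldnc as cldn3d), were all called lower. Levels of cldnc were 123, 59.5 and 37.1 CPM in iridophores, against 281, 220.2 and 192 CPM in control libraries, and the log2 change was -1.72 (SE 0.39, edgeR adjusted p 0.00606), or -2.33 without iridophore replicate 1. The gene cldnb, expressed in skin and the lateral line, had 121, 138 and 114 CPM in iridophores, against 171, 204 and 194 CPM in control libraries (log2 change -0.61, SE 0.20, edgeR adjusted p 0.0316), a call lost without control replicate 2, control replicate 3 or iridophore replicate 3. The log2 change of cldnh was -1.02 (edgeR adjusted p 0.0293), and the call was lost without control replicate 1, iridophore replicate 2 or iridophore replicate 3. Without iridophore replicate 3, 4 claudins in all were called lower.

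The superficial claudin cldne had 76.9, 138 and 132 CPM in iridophores, against 98.7, 209.5 and 196 CPM in control libraries, with replicate 1 lowest in each group (log2 change -0.52, SE 0.32, edgeR adjusted p 0.229). It was called lower in replicates 2 and 3 alone, at -0.62 (edgeR adjusted p 0.0221), and without control replicate 1, at -0.84 (edgeR adjusted p 0.0395). With the library-name ending as a term it was called at -0.52 (edgeR adjusted p 0.0318). It was not called with the replicate number as a term (edgeR adjusted p 0.0593) or with DESeq2 (adjusted p 0.257). The skin barrier claudin cldn1 had 43.2 ± 13.7 CPM in iridophores, against 38.3 ± 15.4 CPM in control libraries (means ± SD of 3 libraries, edgeR adjusted p 0.615). The rows cldn8, cldnk and cldn11a were not called. Counts of cldn8 were 1, 4 and 6 in iridophores and 33, 18 and 12 in the control, and its levels did not overlap. Its log2 change was -1.27 (edgeR adjusted p 0.0576), and it was called only with upper-quartile scaling (edgeR adjusted p 0.0366). For cldn11a the log2 change was -0.02. The myelin claudin cldnk had 9.16, 14.5 and 6.75 CPM in iridophores, against 26.9, 12.5 and 17.4 CPM in control libraries (edgeR adjusted p 0.0765), and neither of the 2 tested myelin markers, mbpa and mbpb, was called. The brain and vessel claudins cldn5a and cldn5b had at most 10 counts in any library.

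Annexin A1 genes encode calcium-dependent membrane-binding proteins of epithelia and leukocytes, and anxa1b and anxa1c are known from the superficial skin layer. The gene anxa1c rose to 33.0, 72.6 and 51.2 CPM in iridophores, against 1.50, 7.14 and 4.61 CPM in control libraries, with no overlap (log2 change 3.70, SE 0.49, edgeR adjusted p 0.000298). With 5, 12 and 9 counts in the control, anxa1c passed the filter only through iridophores. Its paralog anxa1b had 18.3, 82.8 and 41.1 CPM in iridophores, against 14.7, 18.5 and 23.6 CPM in control libraries. Those groups overlapped through iridophore replicate 1, and the log2 change of 1.34 (SE 0.44, edgeR adjusted p 0.0341) kept its call, of the 6 libraries left out in turn, only without that one. It was also lost with upper-quartile scaling (edgeR adjusted p 0.0543). The third gene, anxa1a, had 179 ± 49.4 CPM in iridophores, against 152 ± 48.6 CPM in control libraries (means ± SD of 3 libraries, edgeR adjusted p 0.531).

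Of 6 listed macrophage and neutrophil genes 4 had rows and 1, coro1a, was tested and called higher. With 0, 3 and 0 counts in the control, coro1a passed the filter only through iridophores, which favoured a call of higher. The 4 rows had a summed level of 22.0, 58.1 and 55.7 CPM in iridophores, against 2.99, 13.1 and 14.9 CPM in control libraries. The neutrophil gene mpx ran the other way, with 1, 0 and 0 counts in iridophores and 5, 13 and 16 counts in the control, and was not tested. The leukocyte gene coro1a was at least 16.7-fold higher in iridophores against a floor of 3 counts per control library. The part of leukocytes in the annexin values was not tested.

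The gene icn encodes ictacalcin, a small calcium-binding protein of the S100 family found in fish epithelia. It had 3973, 1018 and 774 CPM in iridophores, against 449, 159 and 189 CPM in control libraries. All iridophore libraries lay above all control libraries, while replicate 1 was the highest library in each group. The fitted log2 change was 2.85 (SE 0.63, edgeR adjusted p 0.00562), or 1.72 without iridophore replicate 1 (edgeR adjusted p 0.00686) and 2.33 in replicates 2 and 3 alone (edgeR adjusted p 1.66e-06). The neighbouring gene icn2 was at the floor in the control and had 1, 4 and 9 counts in iridophores, which was too few to be tested.

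The mucous cell gene agr2, a disulphide isomerase needed for mucin folding in mammals, did not differ in its mean, with 255, 121 and 76.5 CPM in iridophores, against 209.7, 100.0 and 129 CPM in control libraries (log2 change 0.00, SE 0.42, edgeR adjusted p 0.996). Its replicate 1 was the highest library in each group. The related agr1 had 5, 11 and 9 counts in iridophores and 1, 4 and 0 counts in the control, and the epidermal Ly6 gene lye had 1, 7 and 11 counts in iridophores and 0, 4 and 1 counts in the control. Neither reached the filter. Without the filter, agr1, icn2 and lye were all called higher.

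Rows caught by their letters alone included some of the largest rises. The gene krtcap2, a subunit of the oligosaccharyltransferase that glycosylates proteins, had 112, 58.1 and 47.2 CPM in iridophores, against 2.69, 3.57 and 2.56 CPM in control libraries, and the log2 change was 4.56 (SE 0.42, edgeR adjusted p 3.11e-05). The annexin gene anxa13 had 183, 248 and 341 CPM in iridophores, against 16.2, 22.0 and 22.0 CPM in control libraries, and the log2 change was 3.70 (SE 0.29, edgeR adjusted p 1.22e-05). For anxa13l the log2 change was 3.43 (edgeR adjusted p 0.00112), or 2.74 without control replicate 1 and 4.05 without control replicate 3, where its counts were 1 and 4. None of these 3 genes overlapped between the groups. Of them, krtcap2 and anxa13l passed the filter only through iridophores. Without the 12 rows caught by their letters alone, 6 members were higher and 18 lower of 44 tested, beside 22.1% of all genes higher and 17.8% lower.

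The gene dscr3, listed by RefSeq as vps26c, an endosomal sorting subunit, had 116 ± 55.1 CPM in iridophores, against 61.7 ± 6.92 CPM in control libraries (means ± SD of 3 libraries, log2 change 0.89, edgeR adjusted p 0.0466). That call was lost when iridophore replicate 2 or any of the 3 control libraries was left out, and under DESeq2, its size factors in edgeR, upper-quartile scaling, limma-voom and the fit with no filter. The genes anxa11a, anxa11b and krt222 were not called. The remaining letter matches (cldnd1a, cldnd1b, dscama, dscamb and dscc1) had at most 17 counts in a library and were not tested.

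Replicate 1 differed from replicates 2 and 3 in opposite ways for different members. Measured as the log2 ratio of replicate 1 to the mean of the other replicates (CPM + 1), icn shifted by 2.15 in iridophores and 1.36 in the control. Shifts of the same sign were seen for cldn15la (1.65 in iridophores and 0.64 in the control), agr2 (1.36 and 0.87), cldnc (1.33 and 0.45), krt92 (0.87 and 0.22) and krt97 (0.84 and 0.33). Of the 13 tested rows of the superficial list, 9 were below 0 in both groups and 4 were above 0 in both (icn, krt92, evplb and krt1-c5). Downward shifts included those of cyt1 (-0.66 in iridophores and -0.81 in the control), cyt1l (-0.61 and -1.13), cldne (-0.80 and -1.03), krtt1c19e (-0.62 and -0.71) and cldn1 (-0.76 and -1.13).

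Of 25 tested members with at least 100 CPM on average, 9 were above 0 in both groups, 11 were below 0 in both and 5 had opposite signs. The Pearson coefficient between the shifts was 0.76 over those 25 genes, 0.52 over all 1026 genes of that level and 0.32 over all 6849 tested genes. These are correlations across genes of the same 6 libraries, given as a description. Within iridophores, 13.7% of tested members shifted by more than 1 upwards and 5.88% by more than 1 downwards, beside 8.13% and 12.8% of all tested genes. In the control, 1.96% of tested members shifted by more than 1 upwards and 11.8% by more than 1 downwards, beside 1.37% and 6.16% of all tested genes. The krt8 rows shifted downwards in iridophores only. There krt8 shifted by -0.99 and krt8_1 by -0.84, against 0.05 and 0.15 in the control. Depth, the library-name ending and the iridophore marker sum all differ between replicate 1 and the others, and their part in these shifts was not tested.

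**Figure D4:**
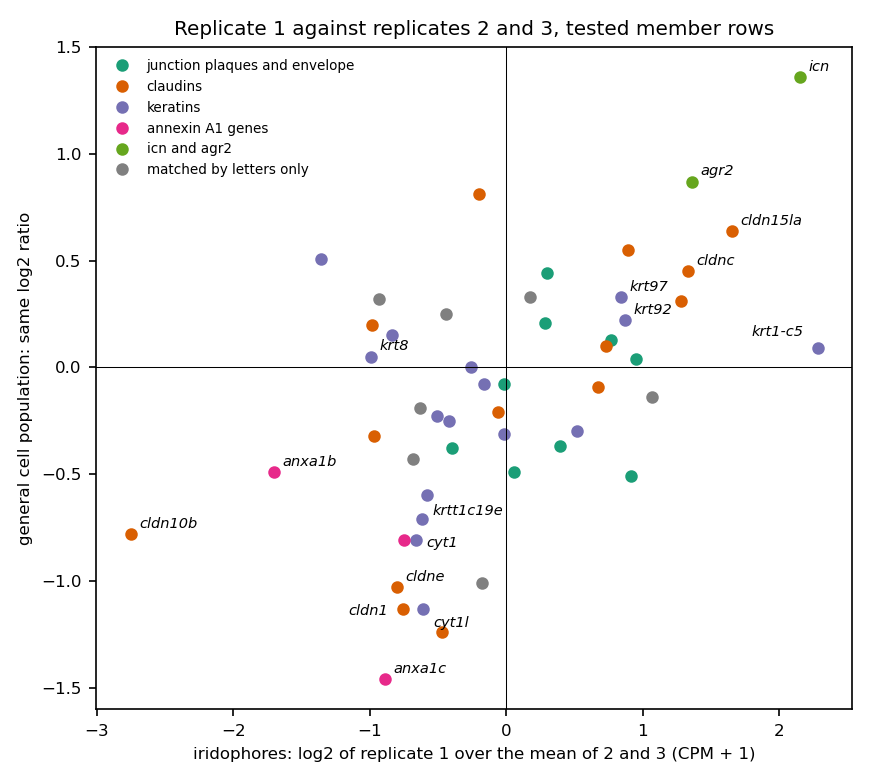
Log2 ratio of replicate 1 to the mean of replicates 2 and 3 (CPM + 1) in iridophores (x axis) and in the general cell population (y axis) for the 51 tested rows, coloured by kind. The genes icn, agr2 and cldn15la lie at the upper right, above 0 in both groups, and cyt1, cyt1l, cldne, cldn1 and krtt1c19e lie at the lower left.

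Genes that work with the members were listed by function and compared in the same fit. Among partners of junctions, 24 genes were listed and 16 of 22 rows were tested. Of these, 6 were lower (marveld3, tjp3, tjp2a, oclna, st14a and spint1a), 1 was higher and 9 were not called, beside 17.8% of all genes lower and 22.1% higher. The tight junction scaffold gene tjp3 had 18.3, 11.6 and 16.9 CPM in iridophores, against 43.4, 45.2 and 42.6 CPM in control libraries (log2 change -1.47, SE 0.26, edgeR adjusted p 0.00175). The lowest value was that of marveld3, at -1.87 (SE 0.46, edgeR adjusted p 0.00978), or -2.75 without iridophore replicate 3. The call of spint1a, at -0.82 (edgeR adjusted p 0.0185), was lost without control replicate 2 or iridophore replicate 2.

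The higher gene was f11r.1, which encodes junctional adhesion molecule A, with 56.8, 39.2 and 37.7 CPM in iridophores, against 6.28, 8.33 and 5.64 CPM in control libraries (log2 change 2.70, SE 0.30, edgeR adjusted p 0.000119). It stood with cldn19 as a junctional membrane protein that was higher. Beta-catenin 1 (ctnnb1) and alpha-catenin (ctnna1), which many cell types use, had log2 changes of 0.48 and 0.06 and were not called.

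Regulators of epithelia were also compared, and of 17 listed genes 8 had rows and 5 were tested. The epithelial factor gene elf3 had 97.1, 79.9 and 90.0 CPM in iridophores, against 255, 283 and 273 CPM in control libraries (log2 change -1.60, SE 0.20, edgeR adjusted p 0.000196). The epithelial splicing regulator esrp1 had a log2 change of -1.98 (edgeR adjusted p 0.00489), or -3.27 without iridophore replicate 3. The regulators capn9 (log2 change -0.78, edgeR adjusted p 0.141) and tfap2a (log2 change -0.81, edgeR adjusted p 0.23) were not called. Over all genes 17.8% were lower.

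Genes of basal attachment gave 4 lower rows, 1 higher and 4 not called of 9 tested, beside 17.8% of all genes lower and 22.1% higher. The lower rows numbered 2 without control replicate 3, iridophore replicate 2 or iridophore replicate 3. The integrin gene itga6l was at least 4.06-fold lower in iridophores, where every library was at or under 3 counts. The hemidesmosomal collagen rows moved unequally: col17a1a had a log2 change of -0.17 (edgeR adjusted p 0.780), while col17a1b had -1.53 (edgeR adjusted p 0.0193), a call lost without control replicate 2 or 3 or iridophore replicate 2 or 3, and with DESeq2 (adjusted p 0.0715). The tetraspanin gene cd151 was higher by 1.18 (edgeR adjusted p 0.0140), a call lost without control replicate 2 or 3 or iridophore replicate 2.

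Ionocytes, the ion-transporting cells of larval skin, had 4 of 6 tested genes lower and 0 higher, beside 17.8% and 22.1% of all genes. Of the lower genes, ca2 and atp1a1a.1 had control means of 399 and 368 CPM, a level at which 36.1% of all genes were lower. The others, atp1a1a.5 and rhcgb, passed the filter only through the control. Not called were ca15a (log2 change -0.45, edgeR adjusted p 0.587) and trpv6 (log2 change 0.27, edgeR adjusted p 0.784). The summed level of the ionocyte list was 407, 343 and 395 CPM in iridophores, against 825, 815 and 847 CPM in control libraries. The ionocyte factor gene foxi3a had 2, 0 and 0 counts in iridophores and 6, 8 and 4 counts in the control. Its levels overlapped between the groups, and it was not tested. The mucous list had 2 tested rows, the members agr2 (not called) and cldnh (lower). The endothelial list had 2 rows with few counts, neither of them tested, and they differed in direction. The gene egfl7 had 3, 4 and 10 counts in iridophores and 1, 1 and 3 counts in the control. For pecam1 the counts were 1, 0 and 6 in iridophores and 1, 4 and 8 in the control, with overlapping levels. Their summed level was 5.81 to 9.00 CPM in iridophores and 0.598 to 5.64 CPM in control libraries.

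**Figure D5:**
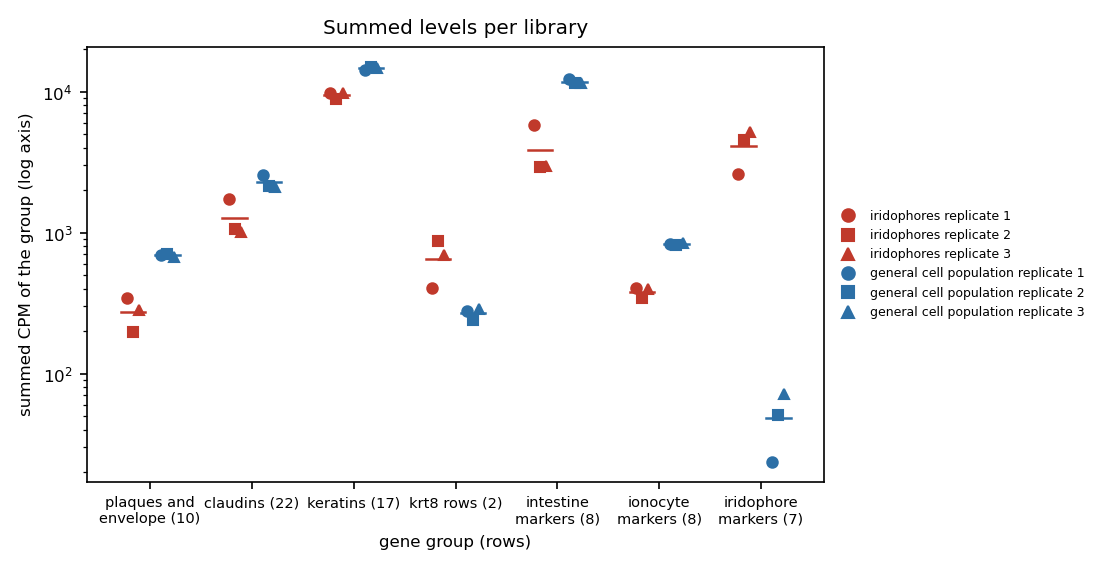
Summed CPM per library (log y axis) of member and marker groups, with the number of rows in brackets, iridophores in red to the left of the general cell population in blue, symbols for replicates and bars for means. Plaque, claudin, keratin, intestine and ionocyte sums are lower in every iridophore library, and the krt8 and iridophore marker sums are higher.

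The 20 members that did not pass the filter had at most 20 counts in any library. Besides those named above they were krt5, cldnf, cldna, cldn2, cldn12 and cldn7a_2. The superficial keratin krt5 had 2, 1 and 9 counts in iridophores and 3, 2 and 5 counts in the control, so that a difference in this marker was not detectable at this depth.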

How the data were processed

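Poly(A) RNA of 3 iridophore and 3 control samples was measured by bulk MARS-seq, a 3' end method, on a NextSeq instrument, per the labels' protocols. The authors deposited raw read counts per gene. The submitters' processing notes name cutadapt, STAR 2.5.2b, HTSeq, DESeq2 1.36.1 and danRer11, with no role given. Whether counting used molecular identifiers is not given in the sources used here.

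Groups were taken from the labels. Counts were tested with edgeR 4.0.16 (R 4.3.3): filterByExpr (minimum count 10, minimum total 15), TMM scaling, the quasi-likelihood F test with group as the only term, and Benjamini-Hochberg adjustment over 6849 of 11016 rows, which hold 98.7% of counts. The SE is the log2 fold change divided by the root of F. CPM is the count divided by the TMM-scaled library size. The fit was checked on simulated counts. It recovered 11 of 97 tested genes given a log2 change of 1 in size and 70 of 87 given 2, with 3 false calls. Changes of about 1 were thus mostly missed in that simulation.

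The members and all gene lists were chosen with earlier results of these data known. Members of at least 100 CPM, called members with a fitted log2 change of 2 or more in size, layer markers and genes that stand out in their class are described. Some have values per library, and others only group means, a log2 change or a call. Further members and partner genes are named to account for counts. A total of 14 alternative settings were tried, among them a term for the library-name ending, with DESeq2 1.42.0 and limma 3.58.1. Gene order comes from RefSeq GRCz12tu, where 66 members matched by symbol and 5 by synonym. A numbered suffix marks 4 member rows, and reads of near-identical genes may be split between rows. The result of 1 partner gene is not reported here.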

Additional observations from a re-analysis of the deposited data

How the results depend on the processing

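Across 39 named results and 14 alternative settings, 484 of 546 comparisons kept direction and side of the threshold, 21 lost the call, 17 gained it and 24 changed sign, and the cause was not tested. Every change of sign was in a member that was not called: agr2 gave -0.02 with DESeq2 size factors, -0.00 with DESeq2, -0.06 with the library-name ending as a term, -0.16 with limma-voom, -0.08 without the filter, -0.15 with upper-quartile scaling, and -0.62 to 0.32 with single libraries left out (-0.28 in replicates 2 and 3 alone). The sign of krtt1c19e turned to -0.01 without the filter, -0.10 with upper-quartile scaling and -0.19 to 0.22 with libraries left out. That of krt94 turned to -0.03, -0.11 and -0.19 to 0.14 under the same settings. With libraries left out, anxa11b ranged from -0.09 to 0.43, krt4 from -0.20 to 0.31 and krt1-19d from -0.17 to 0.06, each with its sign turned without iridophore replicate 3, and anxa1a ranged from -0.02 to 0.44, turned without control replicate 1. Leaving out single libraries gave 7 to 11 members higher and 12 to 19 lower, with the fewest (7 and 12) without iridophore replicate 2. In that fit 1342 of all 7364 tested genes were higher and 860 lower, against 1513 and 1217 of 6849 in the main fit. Replicates 2 and 3 alone gave 13 members higher and 23 lower, beside 1703 higher and 1468 lower of all 7251 tested genes. The member counts thus moved along with those of all genes.

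With the replicate number as a replicate block, 10 members were higher and 20 lower, agr2 was at -0.07, and cldn15la was called (log2 fold change -1.18, edgeR adjusted p 0.000578). Deviations of same-numbered libraries correlated at 0.33, 0.08 and 0.18. With other numbers, iridophore replicate 1 gave -0.16 and -0.24, and control replicate 1 gave -0.16 and -0.25. Replicate 1 of both groups thus shared deviations. Iridophore replicate 2 correlated best with control replicate 3 (0.12), so the numbers were not taken to pair the samples. With the library-name ending as a term, 10 members were higher and 21 lower, beside 1674 and 1467 of all 6849 tested genes.

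The iridophore libraries held 616439 to 1686552 counts, and a member that was not called is not shown to be equal between the groups.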
